A study of Mus musculus with 17 samples.

Results

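The adenylate cyclase genes Adcy1 to Adcy9, which encode the membrane-bound enzymes that make cyclic AMP (cAMP), were examined in mouse prefrontal cortex by bulk RNA sequencing. Members were the rows of the deposited count table with these symbols, 9 of 56953 genes, and all 9 passed the filter on low counts and were tested. The table holds 17 libraries of 3 genotypes on the B6C3F1/J background, 5 of WT mice, 6 of hTau mice and 6 of CgA-KO/hTau mice, aged 8 months by the labels. hTau mice, called PS19 in the study, carried a transgene for human Tau with the mutation P301S, driven by the Prnp promoter, and were bred as heterozygotes. CgA-KO/hTau mice carried the same transgene and in addition lacked Chga, the gene of chromogranin A (CgA), in the whole body from conception. CgA-KO mice without the transgene are not among these libraries, so the effect of losing Chga could be compared in the presence of the transgene only. Each group held males and females, but sex is not given beside the libraries.

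Membrane-bound adenylate cyclases turn ATP into cAMP when Gs-coupled receptors release the stimulatory G protein alpha subunit, and cAMP then acts mainly through protein kinase A and, in the nucleus, through the transcription factor CREB. The isoforms differ in what else regulates them. Adcy1, Adcy3 and Adcy8 encode enzymes stimulated by calcium and calmodulin, Adcy2, Adcy4 and Adcy7 encode enzymes that G protein beta-gamma subunits can stimulate further, Adcy5 and Adcy6 encode enzymes inhibited by calcium and by inhibitory alpha subunits, and Adcy9 encodes an isoform that responds poorly to forskolin. In the forebrain Adcy1 is known as a neuronal isoform of cortex and hippocampus, and Adcy5 is the main isoform of the striatum.

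The genes lie on different stretches of the mouse genome (GRCm38, GENCODE M21). Adcy1 spans chr11:7063489-7178506 on the plus strand, Adcy2 chr13:68620043-68999541 on the minus strand, Adcy5 chr16:35154877-35305738 on the plus strand and Adcy9 chr16:4287529-4420498 on the minus strand. The sequence before the transcription start is shown for these 4 genes, since the largest differences between genotypes were in them. Each run is 250 bases of GRCm38.p6, 5′ to 3′ on the strand of the gene, ending at the base before the RefSeq start, at chr11:7063183-7063432 for Adcy1, chr13:68999542-68999791 for Adcy2, chr16:35154614-35154863 for Adcy5 and chr16:4420499-4420748 for Adcy9. Capitals mark GC boxes (GGGCGG, or CCGCCC on the other strand) and the core of the cAMP response element (TGACG, or CGTCA on the other strand).
Adcy1: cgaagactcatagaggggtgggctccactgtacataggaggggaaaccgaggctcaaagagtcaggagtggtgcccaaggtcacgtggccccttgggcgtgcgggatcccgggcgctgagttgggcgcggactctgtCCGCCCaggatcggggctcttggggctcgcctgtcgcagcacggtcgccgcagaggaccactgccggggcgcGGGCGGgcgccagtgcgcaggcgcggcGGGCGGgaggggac
Adcy2: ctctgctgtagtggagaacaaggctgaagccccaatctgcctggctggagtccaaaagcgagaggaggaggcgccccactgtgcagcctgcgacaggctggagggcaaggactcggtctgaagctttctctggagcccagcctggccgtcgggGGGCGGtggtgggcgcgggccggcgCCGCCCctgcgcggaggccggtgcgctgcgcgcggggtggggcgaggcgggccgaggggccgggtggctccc
Adcy5: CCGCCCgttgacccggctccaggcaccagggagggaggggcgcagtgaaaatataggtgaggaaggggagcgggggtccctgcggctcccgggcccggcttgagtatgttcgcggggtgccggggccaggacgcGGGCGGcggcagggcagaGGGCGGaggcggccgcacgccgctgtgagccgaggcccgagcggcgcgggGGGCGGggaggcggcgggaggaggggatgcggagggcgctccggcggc
Adcy9: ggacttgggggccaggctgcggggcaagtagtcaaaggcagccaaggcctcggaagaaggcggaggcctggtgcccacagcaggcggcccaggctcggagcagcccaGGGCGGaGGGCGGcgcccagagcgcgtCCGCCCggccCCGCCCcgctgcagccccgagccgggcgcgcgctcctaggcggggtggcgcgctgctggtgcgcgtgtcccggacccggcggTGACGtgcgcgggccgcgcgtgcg

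The promoters of these 4 genes were rich in G and C, with 71.2% for Adcy1, 73.2% for Adcy2, 78.0% for Adcy5 and 78.8% for Adcy9, against a median of 52.4% over the 32851 mouse promoters in the RefSeq table. GC boxes numbered 3 in Adcy1, 2 in Adcy2, 4 in Adcy5 and 4 in Adcy9, and 32.7% of all promoters of this length held at least 1. Among these 4 genes the TGACG core was found in Adcy9, and 17.8% of all promoters held it. Outside them it was also found in an Adcy7 promoter (chr8:88282742-88282991). The full cAMP response element (TGACGTCA), present in 1.55% of all promoters, was in none of the 10 member promoters listed for 7 of the 9 genes, and neither was TATAAA, present in 12.4%. GC boxes and TGACG cores did not overlap in these 4 windows, and a match of letters is a description only.

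The longest exact run shared by transcripts of any pair of members was 33 bases, between Adcy4 and Adcy8, shorter than the reads of 100 bases. That run is shown because it limits how far reads of the members could be confused.
Adcy4 and Adcy8: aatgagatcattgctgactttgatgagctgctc
Exons overlapped a gene on the opposite strand for Adcy2 (189 bases, Gm35161), Adcy3 (1380 bases, Cenpo) and Adcy6 (605 bases, Gm29331), and the sources used here do not state whether counting used the strand, so reads of these pairs cannot be told apart.

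Total counts ranged from 8838334 in WT replicate 4 to 227651681 in hTau replicate 6, and levels are given as CPM, the count of a gene relative to its library's size after scaling by edgeR's TMM factors. Chga was at 0 counts in all 6 CgA-KO/hTau libraries and at 152 to 180 CPM in the others, and Prnp was at 748 to 914 CPM in WT against 1974 to 2368 CPM in hTau and 1236 to 2079 CPM in CgA-KO/hTau. The pairs among hTau replicates 4, 5 and 6 had the smallest differences of all pairs of libraries, followed by CgA-KO/hTau replicates 1 and 3. The labels do not say whether these libraries came from separate pieces of tissue, which bears on the n, SD and FDR of both genotypes. The summed level of 20 markers of striatal medium spiny neurons, although all libraries are labelled prefrontal cortex, was 1808 to 5305 CPM in WT, 610 to 806 CPM in hTau and 601 to 3566 CPM in CgA-KO/hTau, where replicates 1 and 3 were at 3565 and 3566 CPM and the other 4 at 601 to 940 CPM. Of the 20 markers, 17 were higher in WT than in hTau and 12 were higher in CgA-KO/hTau than in hTau at an FDR under 0.05, and Isl1 was the marker at 0, in all 6 hTau libraries and in 3 CgA-KO/hTau libraries. Markers of some other regions outside the cortex were higher in WT as well, but of 5 tested thalamic markers 0 were called. The thalamic sum was 55.6 to 100 CPM in WT and 51.1 to 66.7 CPM in hTau. All 5 markers of basal forebrain cholinergic neurons were higher in WT than in hTau, with a sum of 13.0 to 43.4 CPM against 2.64 to 3.38 CPM, and of 2.17 to 17.4 CPM in CgA-KO/hTau. Of 7 choroid plexus markers 5 were higher in WT, with a sum of 13.2 to 19.0 CPM in replicates 1 to 4 and 1098 CPM in replicate 5 against 3.76 to 5.16 CPM in hTau. Of 6 hippocampal markers 1 was higher in WT, with a sum of 158 to 285 CPM against 107 to 124 CPM. The part of these tissues in the differences between genotypes was not tested, beyond the striatal marker level used as a covariate for the members. In tissue pieces like these, fewer cells of a type and less RNA per cell cannot be told apart.

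Scaled by exon length, the members fell into a high, a middle and a low group. In hTau, Adcy1 had the highest level at 109 ± 6.16 CPM per kb (SD, n = 6), followed by Adcy2 at 50.2 ± 3.95 CPM per kb, Adcy5 at 18.0 ± 1.39 CPM per kb and Adcy9 at 17.2 ± 2.68 CPM per kb. Adcy3 (5.94 ± 0.216 CPM per kb), Adcy6 (5.14 ± 0.498 CPM per kb) and Adcy8 (3.98 ± 0.828 CPM per kb) came next, and Adcy7 (0.656 ± 0.112 CPM per kb) and Adcy4 (0.568 ± 0.0721 CPM per kb) were lowest. Ranges over the libraries overlapped for Adcy5 and Adcy9, as did those of Adcy3 with Adcy6, Adcy6 with Adcy8 and Adcy7 with Adcy4. These ranges do not separate the neighbours in the order, and their order within each library was not tested. In WT the order differed at the top, with Adcy1 at 53.5 ± 15.9 CPM per kb (SD, n = 5), Adcy5 at 50.5 ± 29.0 CPM per kb and Adcy2 at 36.8 ± 5.72 CPM per kb. Their ranges over the WT libraries overlapped, although within each WT library Adcy1 was above Adcy2. In WT replicates 3 and 5 Adcy5 was above Adcy1. In CgA-KO/hTau, Adcy1 was at 92.3 ± 12.2 CPM per kb (SD, n = 6), and Adcy2 (39.1 ± 5.36 CPM per kb) and Adcy5 (38.5 ± 35.2 CPM per kb) overlapped. As a share of the summed length-scaled level of the 9 genes, Adcy1 took 50.9% to 52.2% in hTau, 19.6% to 40.0% in WT and 39.7% to 55.3% in CgA-KO/hTau, while Adcy5 took 8.06% to 9.06%, 15.7% to 44.6% and 6.07% to 36.8%.

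**Figure D1:**
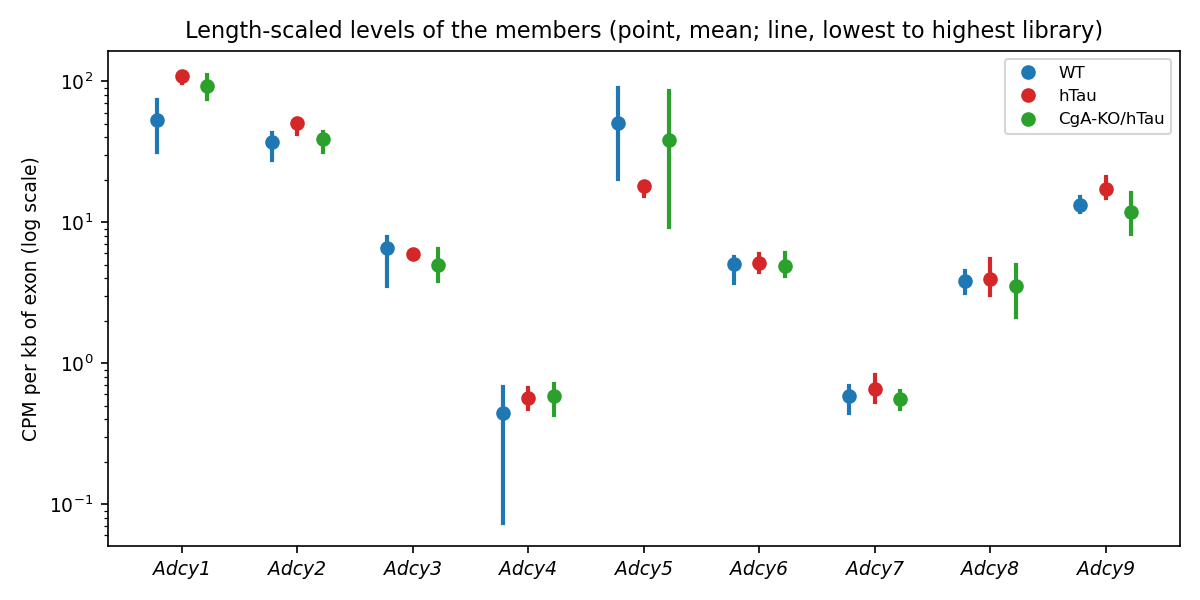
Level of each member in CPM per kb of exon (vertical axis, log scale) by gene and genotype; points are means and lines run from the lowest to the highest library (n = 5 WT, 6 hTau, 6 CgA-KO/hTau). By mean, Adcy1 is highest and Adcy4 and Adcy7 are lowest in each genotype.

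The comparison of WT with hTau asked how the family differed with the Tau transgene. By edgeR's quasi-likelihood model, with FDR values adjusted over 23062 genes, 2 members were called at an FDR under 0.05, Adcy1 and Adcy2, both lower in WT. Over all genes 5.90% were called and 1.95% were called lower in WT. At the threshold given in the Methods of the study, an absolute log2 fold change over 0.5 with an unadjusted p under 0.01, 2 members passed, Adcy1 lower and Adcy5 higher in WT, against 7.39% of all genes. The libraries of WT and hTau did not overlap for Adcy1 and Adcy5, and 9.52% of all genes showed no overlap. The median log2 fold change of the 9 members was -0.14, against -0.01 over all genes tested.

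The comparison of CgA-KO/hTau with hTau addressed the loss of Chga in mice with the transgene, and it shares the hTau libraries with the comparison above. Adcy2 and Adcy9 were called, both lower in CgA-KO/hTau, where 9.72% of all genes were called and 4.22% were called lower. At the Methods threshold 1 member passed, Adcy9, against 9.73% of all genes, and no member had libraries without overlap, against 6.63% of all genes. The median log2 fold change of the members was -0.23, and that of all genes was 0.03. Between CgA-KO/hTau and WT, 1 member was called, Adcy1, higher in CgA-KO/hTau, where 6.46% of all genes were called and 3.56% were called higher. Adcy1 also passed the Methods threshold, as did 7.75% of all genes, and its libraries did not overlap, as for 3.60% of all genes. The members' median log2 fold change there was -0.10, against 0.01 over all genes.

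**Figure D2:**
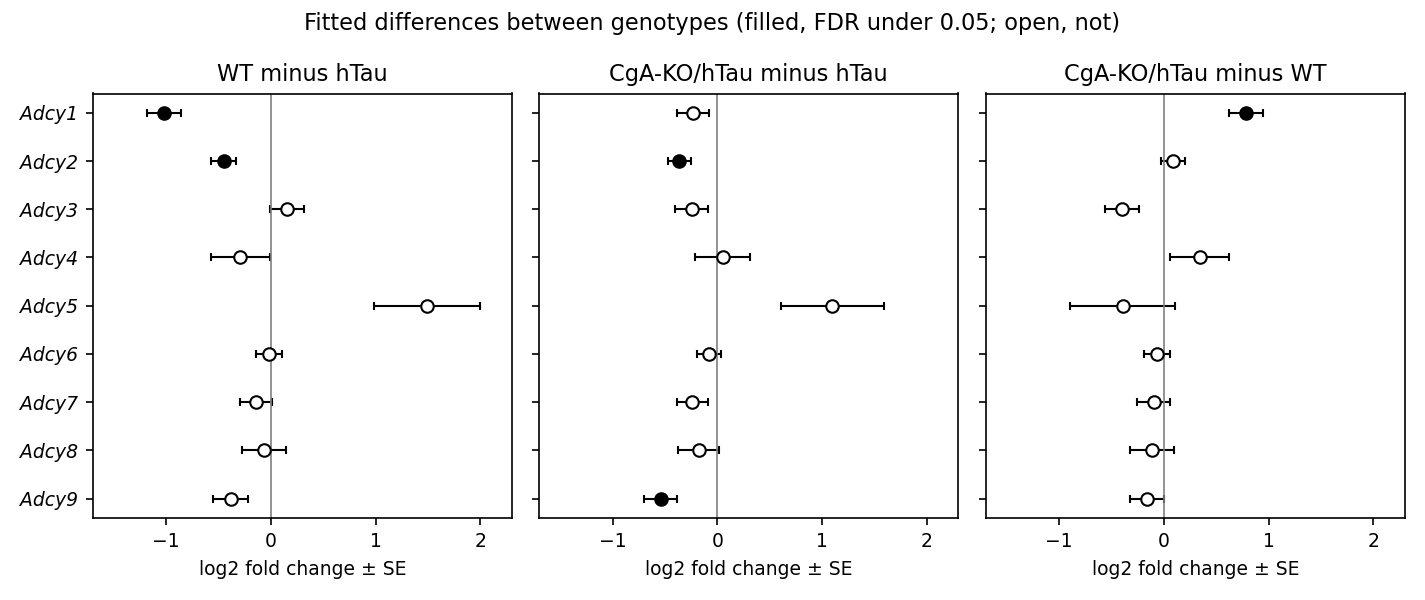
Log2 fold change of each member with its SE (horizontal axis) in each of the 3 comparisons, from the fit to all 17 libraries; filled points have an FDR under 0.05. Adcy1 is lower in WT than in the other genotypes, and Adcy5 has the widest errors.

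Adcy1, the most abundant member by mean level in each genotype, stood at 929, 754, 692, 581 and 394 CPM in the 5 WT libraries. In hTau it ranged from 1210 to 1427 CPM with a median of 1375 CPM. In CgA-KO/hTau it ranged from 938 to 1381 CPM with a median of 1133 CPM. Each WT library was below each library of the other genotypes, though the highest WT library (929 CPM) was close to the lowest CgA-KO/hTau library (938 CPM). The mean was 670 ± 199 CPM in WT, 1359 ± 77.1 CPM in hTau and 1156 ± 153 CPM in CgA-KO/hTau. Adcy1 was thus 2.03-fold lower in WT than in hTau (log2 fold change -1.02, SE 0.16, FDR 0.00137) and higher in CgA-KO/hTau than in WT by 0.79 on the log2 scale (SE 0.16, FDR 0.00904). Between CgA-KO/hTau and hTau the log2 fold change was -0.23 (SE 0.15, FDR 0.332).

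The summed level of 12 markers of cortical excitatory neurons, in which Adcy1 is known to be expressed, was 3907 to 6228 CPM in WT, 5933 to 7198 CPM in hTau and 5093 to 6703 CPM in CgA-KO/hTau. In WT against hTau all 12 had a negative log2 fold change (median -0.40, against -0.01 over all genes). In CgA-KO/hTau against hTau 9 were negative and 3 positive (median -0.21, against 0.03). At an FDR under 0.05, 2 of the 12 were lower in WT and 1 was lower in CgA-KO/hTau than in hTau, and none was at 0 counts. With the mean level of these markers in the model, Adcy1 remained lower in WT than in hTau, by -0.84 on the log2 scale (FDR 0.0267), and with the striatal markers in the model by -0.95 (FDR 0.0134). Marker level and genotype were not independent, since WT replicates 2 to 5 (3907 to 5184 CPM) lay below all hTau libraries. WT replicate 1, at 6228 CPM, lay within the hTau range with Adcy1 at 929 CPM. The excitatory covariate was added after the data had been seen, and the part of these cells in the difference was not tested. The genes closest to Adcy1 over the 17 libraries were Vsig2 (Pearson r = 0.960), Gm35040 (r = 0.956) and Scrt1 (r = 0.929). The difference between CgA-KO/hTau and WT was not called when only these genotypes were fitted (log2 fold change 0.80, FDR 0.0636) or without WT replicates 3 and 5 (log2 fold change 0.62, FDR 0.0510).

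**Figure D3:**
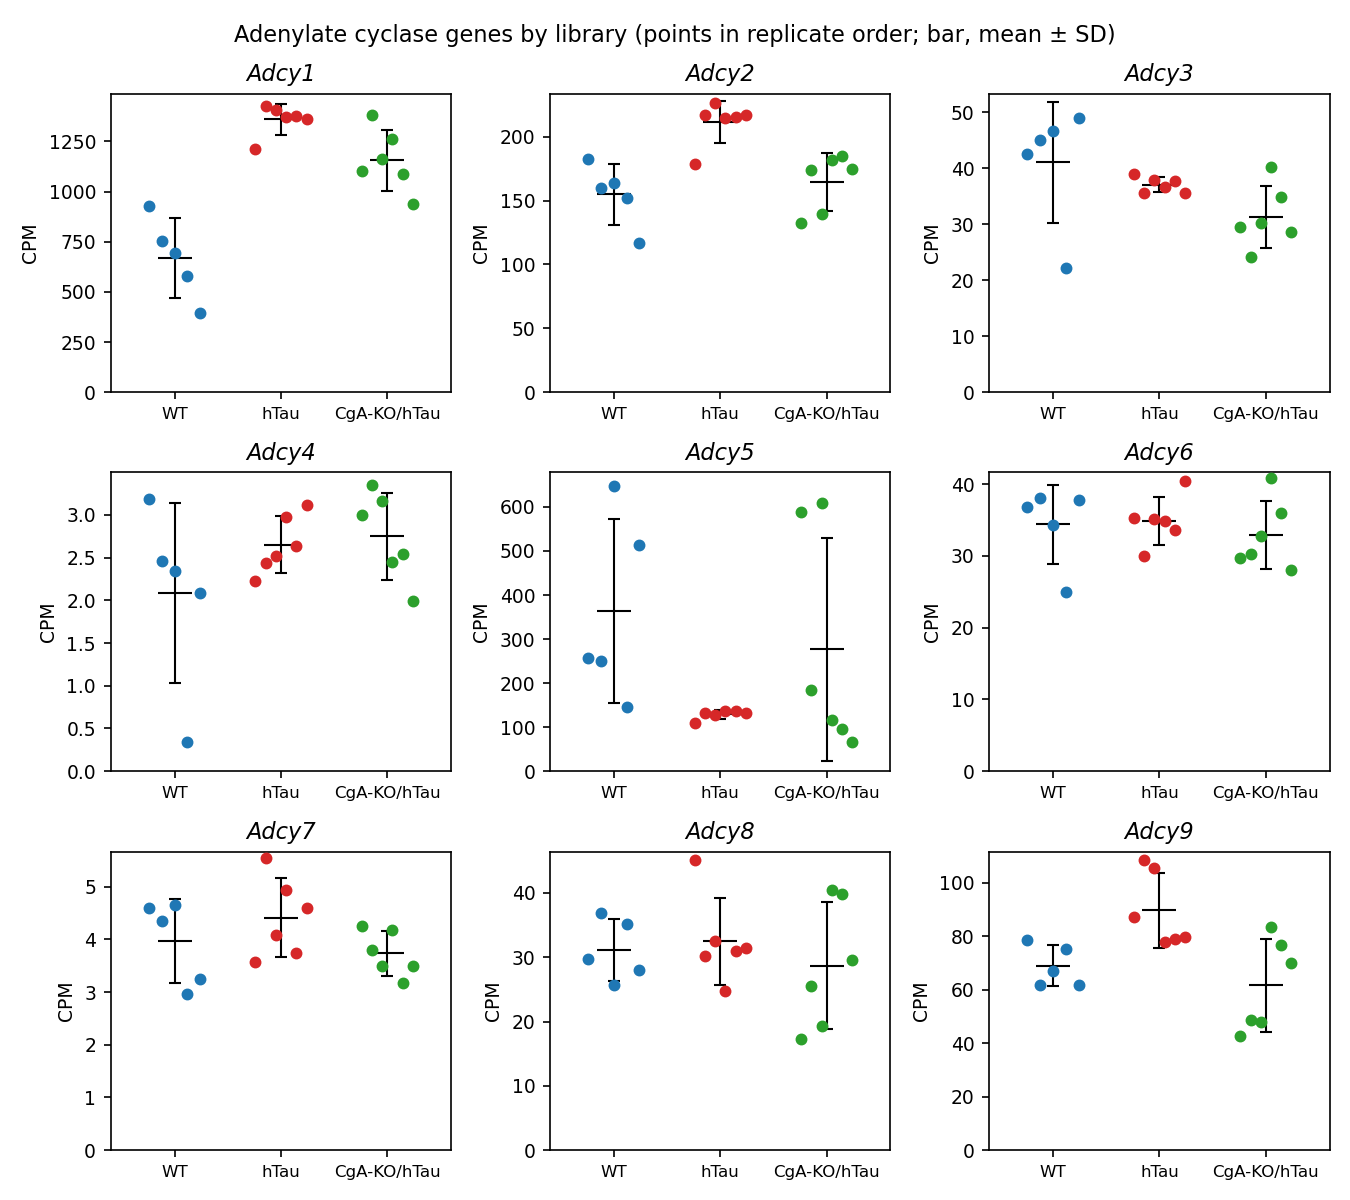
CPM of each member (vertical axes, linear, from 0) in the 17 libraries by genotype; points are libraries in replicate order and bars are the mean ± SD. Adcy1 separates WT from hTau, Adcy5 is spread over several-fold in WT and CgA-KO/hTau, and Adcy9 in CgA-KO/hTau falls into 3 lower and 3 higher libraries.

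The other calcium-stimulated members were lower in abundance and were not called. Adcy8, which serves in synaptic plasticity with Adcy1, stood at 29.8, 36.9, 25.6, 35.1 and 28.1 CPM in WT. It ranged from 24.7 to 45.0 CPM (median 31.2 CPM) in hTau. In CgA-KO/hTau it was at 17.3, 25.6 and 19.3 CPM in replicates 1 to 3 and at 40.4, 39.8 and 29.6 CPM in replicates 4 to 6. The genotypes overlapped, and the log2 fold change was -0.06 for WT against hTau (SE 0.21, FDR 0.905) and -0.18 for CgA-KO/hTau against hTau (SE 0.20, FDR 0.589). Adcy3, the isoform of olfactory neurons and neuronal primary cilia, was at 42.6, 45.0, 46.6, 22.1 and 48.9 CPM in WT. It was at 35.6 to 39.0 CPM in hTau (median 37.2 CPM) and at 24.1 to 40.2 CPM in CgA-KO/hTau (median 29.9 CPM). In 4 of 5 WT libraries Adcy3 was above all other libraries, and WT replicate 4, the shallowest library, was below them. The log2 fold change of CgA-KO/hTau against WT was -0.40 (SE 0.16, FDR 0.152), and it was -0.55 (FDR 0.00746) without WT replicate 4.

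Among the members stimulated by beta-gamma subunits, Adcy2 was called in both comparisons with hTau. It stood at 182, 159, 164, 152 and 117 CPM in WT. It ranged from 179 to 226 CPM in hTau (median 216 CPM), and from 132 to 185 CPM in CgA-KO/hTau (median 174 CPM). In hTau, 5 of 6 libraries were above all WT and CgA-KO/hTau libraries, and hTau replicate 1 lay within their range. Adcy2 was 1.37-fold lower in WT (log2 fold change -0.45, SE 0.12, FDR 0.0293) and 1.29-fold lower in CgA-KO/hTau (log2 fold change -0.36, SE 0.11, FDR 0.0479). Between CgA-KO/hTau and WT the log2 fold change was 0.09 (SE 0.12, FDR 0.724). The genes closest to Adcy2 over the libraries were Kcnab3 (r = 0.951), a potassium channel beta subunit, Vamp1 (r = 0.948), a synaptic vesicle protein, and Esyt1 (r = 0.948).

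Neither call of Adcy2 held throughout. The call in WT was lost without any single library among WT replicates 4 and 5 and hTau replicates 2 to 6 (FDR 0.0520 to 0.0927), and that in CgA-KO/hTau was lost in 11 of the 17 fits that left out 1 library (FDR 0.0541 to 0.107). With the striatal markers in the model the log2 fold change was -0.11 (FDR 0.634) in WT and -0.22 (FDR 0.150) in CgA-KO/hTau, and with the excitatory markers it was -0.20 (FDR 0.242) and -0.21 (FDR 0.165). With the near-identical libraries averaged it was -0.43 (FDR 0.111) and -0.29 (FDR 0.263).

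Adcy4 and Adcy7, known from endothelial and blood cells among other tissues, were the least abundant members. Adcy7 was at 2.97 to 4.66 CPM in WT, 3.57 to 5.54 CPM in hTau and 3.17 to 4.26 CPM in CgA-KO/hTau. Adcy4 was at 3.18, 2.46, 2.34, 0.342 and 2.09 CPM in WT, 2.22 to 3.12 CPM in hTau and 1.99 to 3.35 CPM in CgA-KO/hTau. The value of 0.342 CPM rests on 3 counts in WT replicate 4, so Adcy4 was barely detectable at the depth of that library. Neither gene was called in any comparison (FDR 0.300 to 0.922), and none of the 12 endothelial markers was called in any comparison. All 12 markers had a negative log2 fold change in WT against hTau (median -0.19). In CgA-KO/hTau 8 were negative and 4 positive against hTau (median -0.07), and 11 were positive and 1 negative against WT (median 0.17).

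Adcy5, the striatal isoform that carries signals of dopamine and adenosine receptors, was spread over several-fold in WT and in CgA-KO/hTau. It stood at 257, 251, 647, 146 and 514 CPM in WT. In hTau it ranged from 110 to 137 CPM with a median of 132 CPM. In CgA-KO/hTau it was at 588, 185, 610, 115, 95.2 and 66.5 CPM in replicates 1 to 6. All WT libraries were thus above all hTau libraries, while CgA-KO/hTau held 3 libraries above and 2 below the hTau range. The mean was 363 ± 209 CPM in WT, 129 ± 9.99 CPM in hTau and 277 ± 253 CPM in CgA-KO/hTau. The log2 fold change was 1.49 for WT against hTau (SE 0.51, FDR 0.0942), 1.10 for CgA-KO/hTau against hTau (SE 0.49, FDR 0.151) and -0.39 for CgA-KO/hTau against WT (SE 0.50, FDR 0.714), and none of these was called at an FDR under 0.05. The difference between WT and hTau was called when only these genotypes were fitted (log2 fold change 1.501, FDR 0.01001), by limma voom (1.38, FDR 0.0129) and without CgA-KO/hTau replicates 1 and 3 (1.49, FDR 0.00932).

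The libraries with the highest Adcy5, WT replicates 3 and 5 and CgA-KO/hTau replicates 1 and 3, were those with the highest striatal marker sums (5305, 4895, 3565 and 3566 CPM). The gene closest to Adcy5 was Gng7 (r = 0.983 over 17 libraries), which encodes the gamma subunit paired with the stimulatory alpha subunit of striatum and is itself on the marker list. Gm6556 (r = 0.975) and Prkch (r = 0.973) followed. These points share libraries and tissue pieces, and r is given as a description. With the mean level of the striatal markers in the model, the log2 fold change of Adcy5 turned to -1.09 in WT (FDR 0.00225) and to -0.47 in CgA-KO/hTau (FDR 0.0352) against hTau, and to 0.62 for CgA-KO/hTau against WT (FDR 0.00534). Marker level and genotype were not independent, since all WT libraries lay above all hTau libraries in both. Without WT replicates 3 and 5 the log2 fold change in WT was 0.76 (FDR 0.481), and without CgA-KO/hTau replicates 1 and 3 it was -0.17 (FDR 0.801) in CgA-KO/hTau against hTau and -1.65 (FDR 0.0158) against WT.

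**Figure D4:**
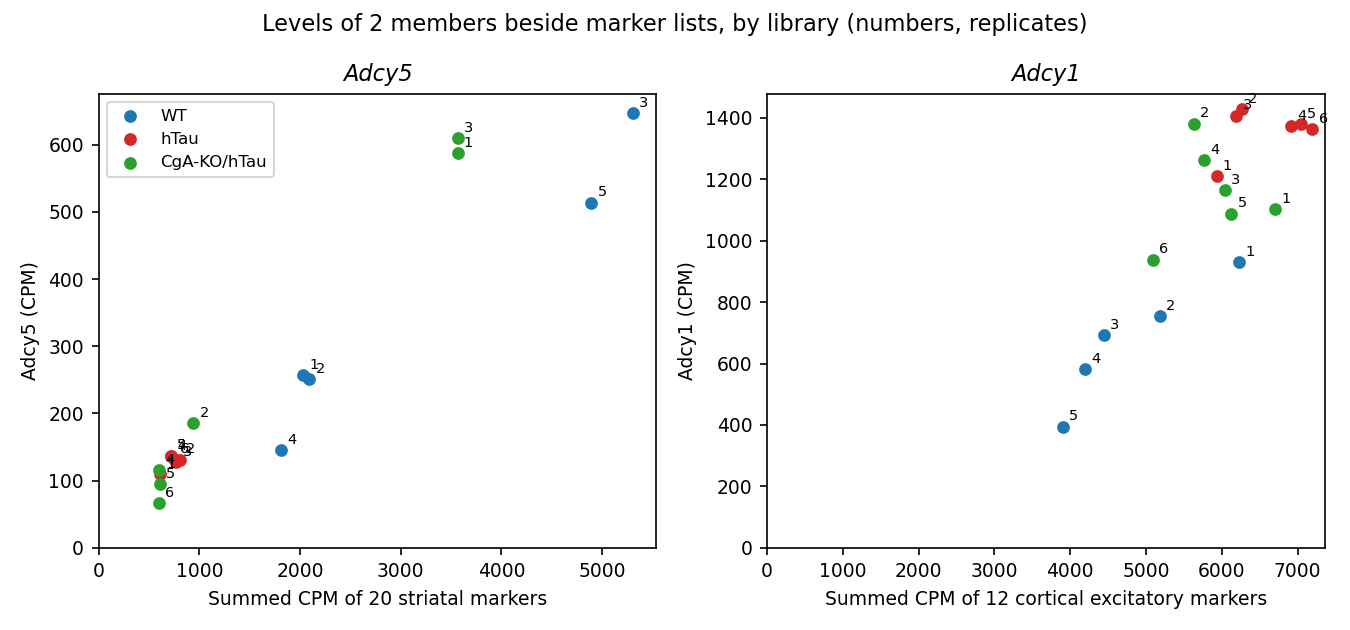
Adcy5 in CPM against the summed CPM of 20 striatal markers (left) and Adcy1 in CPM against the summed CPM of 12 cortical excitatory markers (right); each point is 1 library, coloured by genotype and numbered by replicate. The 4 libraries with the highest Adcy5 (514 to 647 CPM) have the highest striatal marker sums. WT replicates 2 to 5 have lower excitatory sums than all hTau libraries.

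Adcy6, the closest relative of Adcy5 in regulation, was not called in any comparison. It was at 25.0 to 38.1 CPM in WT, 30.0 to 40.5 CPM in hTau and 28.0 to 40.8 CPM in CgA-KO/hTau, and the groups overlapped. The log2 fold change was -0.02 (SE 0.12, FDR 0.965), -0.08 (SE 0.12, FDR 0.680) and -0.07 (SE 0.12, FDR 0.811) in the 3 comparisons.

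Adcy9, broadly expressed, was called in CgA-KO/hTau. It stood at 78.4, 61.7, 67.1, 75.3 and 61.8 CPM in WT. It ranged from 77.6 to 108 CPM in hTau (median 83.5 CPM). In CgA-KO/hTau it was at 42.7, 48.6 and 47.8 CPM in replicates 1 to 3 and at 83.4, 76.8 and 70.0 CPM in replicates 4 to 6. Of the last 3 libraries, 1 lay in the hTau range and 2 below it, whereas replicates 1 to 3 were below all libraries of WT and hTau. Adcy9 was 1.46-fold lower in CgA-KO/hTau than in hTau (log2 fold change -0.54, SE 0.16, FDR 0.0393), and the log2 fold change was -0.38 in WT against hTau (SE 0.17, FDR 0.198) and -0.16 in CgA-KO/hTau against WT (SE 0.17, FDR 0.628). The genes closest to it were Arfgef2 (r = 0.975), Atrnl1 (r = 0.970) and Ppm1l (r = 0.970). The call was lost in 8 of the 17 fits that left out 1 library, among them hTau replicates 1, 2, 3, 5 and 6 and CgA-KO/hTau replicates 1, 2 and 3 (log2 fold change -0.57 to -0.45, FDR 0.0539 to 0.0961). It was also lost with the striatal (-0.33, FDR 0.108) or the excitatory markers (-0.37, FDR 0.128) in the model, with only these genotypes fitted (-0.53, FDR 0.0519), with the replicate number as a block (-0.57, FDR 0.0984), with the near-identical libraries averaged (-0.54, FDR 0.139) and without CgA-KO/hTau replicates 1 and 3 (-0.37, FDR 0.147).

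The split within CgA-KO/hTau coincided with the level of the Y-linked gene Ddx3y. In each genotype its level exceeded 1 CPM in replicates 1 to 3 and was lower than that in the other libraries. After these values had been seen, the difference between genotypes was tested for a difference between the libraries above and below 1 CPM of Ddx3y. Since the test was chosen after the split in these members was seen, its FDR values describe the split and are no independent evidence of it. For CgA-KO/hTau against hTau this interaction was called for 3 members and for 11.7% of all genes. Adcy9 had a log2 fold change of -1.11 in the libraries above 1 CPM (FDR 3.6e-05) and of -0.04 in those below (FDR 0.897), an interaction of -1.08 (SE 0.17, FDR 0.00169). Adcy8 had -0.79 above (FDR 0.0105) and 0.33 below (FDR 0.384), an interaction of -1.13 (SE 0.28, FDR 0.0205). Adcy5 had 1.91 above (FDR 0.0112) and -0.55 below (FDR 0.560), an interaction of 2.46 (SE 0.68, FDR 0.0319). For CgA-KO/hTau against WT the interaction was called for Adcy9 (-0.74, SE 0.18, FDR 0.0272) and for 5.47% of all genes, and for WT against hTau it was called for no member and for 0.0564% of all genes.

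The Ddx3y groups of CgA-KO/hTau differed in other ways as well. Mitochondrial genes took 15.3%, 18.2% and 13.8% of the counts in replicates 1 to 3 and 3.84%, 6.63% and 10.9% in replicates 4 to 6, against 2.56% to 4.59% in hTau. Summed markers of cortical interneurons were at 412, 622 and 401 CPM in replicates 1 to 3 and at 812, 890 and 944 CPM in replicates 4 to 6. None of the 10 interneuron markers was higher and 3 were lower in CgA-KO/hTau than in hTau. Summed striatal markers were at 3565, 940 and 3566 CPM in replicates 1 to 3 and at 601 to 605 CPM in replicates 4 to 6. Thalamic sums were lower in replicates 1 to 3 (52.1 to 60.2 against 63.1 to 81.5 CPM). Choroid plexus sums were higher there (11.5 to 13.2 against 7.19 to 7.97 CPM). Replicates 1 to 3 were above replicates 4 to 6 in the summed markers of oligodendrocytes (2788 to 3181 against 1694 to 1789 CPM), astrocytes (4711 to 7115 against 1563 to 3725 CPM), pericytes and smooth muscle (228 to 231 against 146 to 161 CPM), microglia (308 to 350 against 196 to 258 CPM) and endothelial cells (285 to 303 against 212 to 234 CPM). The hTau libraries below 1 CPM of Ddx3y were the 3 near-identical ones, which narrows the spread in that group. CgA-KO/hTau replicates 1 and 3, the other near-identical pair, were both above 1 CPM, which bears on the n and FDR there. The part of these differences in the interaction was not tested. Sex as read from Ddx3y, mitochondrial share and these markers, which moved together, cannot be told apart here.

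**Figure D5:**
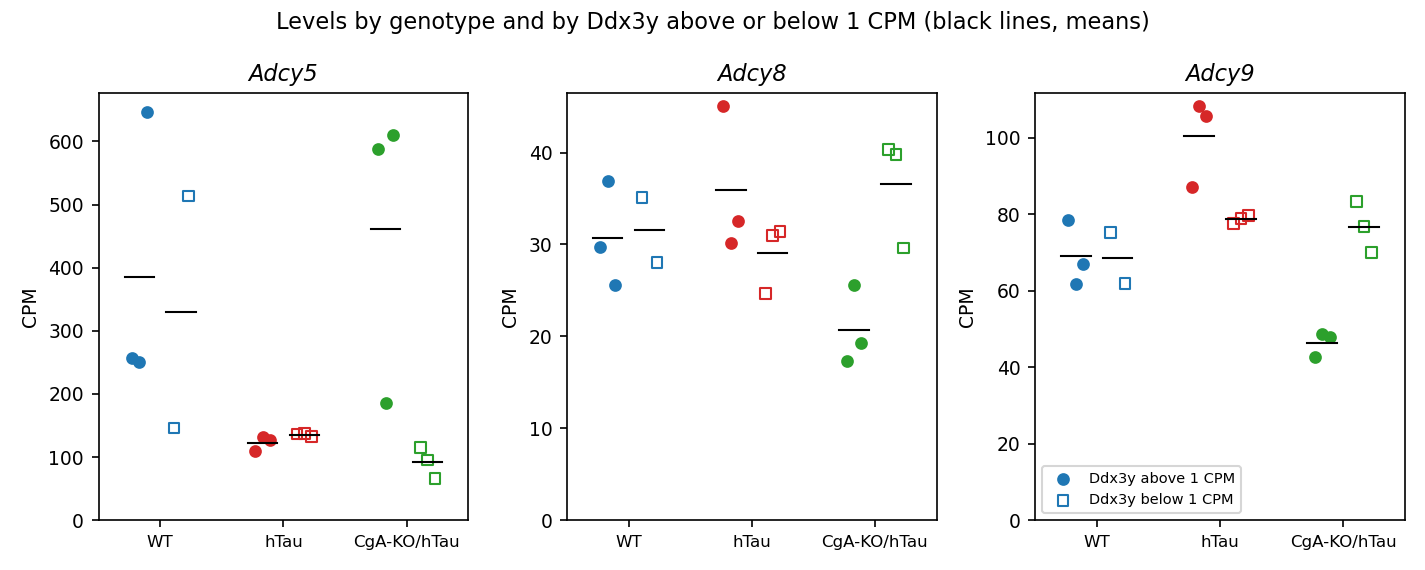
CPM of Adcy5, Adcy8 and Adcy9 (vertical axes, linear, from 0) by genotype, with Ddx3y above 1 CPM (filled circles) or below (open squares); points are libraries and black lines are means. In CgA-KO/hTau, Adcy9 is at 42.7 to 48.6 CPM where Ddx3y is above 1 CPM and at 70.0 to 83.4 CPM where it is below.

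The other genes of the pathway were taken from hand-written lists, beginning with the receptors. Against hTau, the calls over all genes tested were 3.95% higher and 1.95% lower for WT, and 5.50% higher and 4.22% lower for CgA-KO/hTau, so that 1 call among about 10 genes of a list is near the share of all genes. Of 21 receptors coupled to stimulatory G proteins, 7 were higher and none lower in WT than in hTau, and 4 were higher and none lower in CgA-KO/hTau. The serotonin receptor gene Htr4 was at 5.69 ± 2.02 CPM in WT, 0.914 ± 0.132 CPM in hTau and 1.75 ± 0.617 CPM in CgA-KO/hTau (log2 fold change against hTau 2.63 and 0.94, FDR 2.8e-05 and 0.0213). Glp1r, the receptor of glucagon-like peptide, was at 4.37 ± 3.01 CPM in WT and 0.497 ± 0.0884 CPM in hTau (log2 fold change 3.12). The dopamine receptor gene Drd1 had log2 fold changes of 3.15 in WT and 2.28 in CgA-KO/hTau, and Gpr6 had 4.28 and 2.79. Drd1 and Gpr6 are on the striatal marker list.

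Of 29 tested receptors coupled to inhibitory G proteins, 7 were higher and none lower in WT, and 3 were higher and 5 lower in CgA-KO/hTau than in hTau. Npy2r, a neuropeptide Y receptor gene, was higher in WT by 2.13 on the log2 scale (FDR 0.00079), Htr1b by 1.57 (FDR 0.00137), the adrenergic receptor gene Adra2a by 1.23 (FDR 0.00198) and the opioid receptor gene Oprm1 by 1.13 (FDR 0.00240). Oprm1 was also higher in CgA-KO/hTau, by 0.89 (FDR 0.00937). The 5 lower in CgA-KO/hTau, named here after their values were seen, were Htr1a (-0.69, FDR 0.00603), Oprd1 (-0.50, FDR 0.0300), Grm2 (-0.998, FDR 0.0353), Sstr1 (-1.004, FDR 0.00795) and Sstr3 (-0.42, FDR 0.00919), which encode receptors of serotonin, opioids, glutamate and, for the last pair, somatostatin.

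Among 7 alpha subunits that act on the enzymes, Gnal, the stimulatory subunit of striatum and olfactory epithelium, was the only call, with 443 ± 100 CPM in WT and 214 ± 15.6 CPM in hTau (log2 fold change 1.05, FDR 0.00926), and it is on the striatal marker list. No alpha subunit was called in CgA-KO/hTau against hTau. Of 14 tested beta and gamma subunits, 2 were higher in WT and 3 in CgA-KO/hTau than in hTau, and none was lower. Gnb4 was higher in both, by 1.25 (FDR 0.0150) and 1.36 (FDR 0.00783), Gng4 was higher in WT by 0.74 (FDR 0.00900), and Gng12 and Gng5 were higher in CgA-KO/hTau by 0.55 (FDR 0.00819) and 0.65 (FDR 0.0334).

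None of the 3 calmodulin genes was called against hTau. Of 10 other regulators, 4 were higher in WT, and 1 was higher and 1 lower in CgA-KO/hTau. Ric8b, a chaperone of stimulatory alpha subunits, was higher in WT by 0.61 (FDR 0.00268), and Rgs2 by 0.53 (FDR 0.0173). The striatal regulator Rgs9 was higher by 4.04 in WT (FDR 0.00615) and by 2.90 in CgA-KO/hTau (FDR 0.0252). Adcyap1, which encodes the neuropeptide PACAP, an activator of the cyclases through its receptors, was at 28.2 ± 5.88 CPM in WT, 36.9 ± 2.91 CPM in hTau and 18.8 ± 8.30 CPM in CgA-KO/hTau, lower in CgA-KO/hTau than in hTau by -0.98 on the log2 scale (FDR 0.0171).

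Downstream of cAMP lie protein kinase A, its anchors and CREB. Of 9 protein kinase A subunits and inhibitors, none was called in WT, while Prkar2b was higher (0.93, FDR 0.0146) and Prkar1b lower (-0.50, FDR 0.0205) in CgA-KO/hTau than in hTau. Of 10 A-kinase anchor proteins, Akap9 was higher (0.80, FDR 0.00443) and Akap12 lower (-0.67, FDR 0.0255) in WT, and none was called in CgA-KO/hTau. The 2 exchange factors regulated by cAMP were not called against hTau, and of 10 CREB family factors and coactivators 1 was, Creb3, lower in CgA-KO/hTau by -0.37 (FDR 0.0466). Of 12 genes known to be induced through cAMP and CREB, 1 was called in each comparison with hTau, the nuclear receptor gene Nr4a2, at 64.2 ± 15.4 CPM in WT, 17.8 ± 15.4 CPM in hTau and 132 ± 32.5 CPM in CgA-KO/hTau (log2 fold changes 1.86 and 2.90, FDR 0.00574 and 0.000291). The median log2 fold change of these 12 genes was -0.14 in WT and 0.69 in CgA-KO/hTau against hTau. Over all genes tested it was -0.01 and 0.03. In WT 4 of the 12 were positive and 8 negative, and in CgA-KO/hTau all 12 were positive against hTau and against WT. Adcy10, the soluble cyclase that responds to bicarbonate, was at 0.406 ± 0.171 CPM in WT, 0.863 ± 0.199 CPM in hTau and 0.568 ± 0.233 CPM in CgA-KO/hTau and was not called (FDR 0.0758 in WT and 0.189 in CgA-KO/hTau against hTau).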

How the data were processed

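Polyadenylated RNA of 17 prefrontal cortex samples (1 library each) was sequenced in paired ends. According to the submitters' processing notes and the Methods, the authors trimmed reads with Trimmomatic 0.39, aligned them to mm10 with STAR 2.7.10b and quantified them with StringTie 1.3.6, and the deposited values are whole-number counts per gene made from StringTie coverage with prepDE, without normalization. The annotation release and strand setting are not given in the sources used here. Low counts peaked at 3 and 6 in all 17 libraries, so that counts exceed sequenced fragments and overstate precision at low levels. The Methods call replicates biological, but the labels do not tie libraries to animals, and p-values measure the spread between these libraries.

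Samples were grouped by the genotype in the labels. edgeR 4.0.16 (R 4.3.3) fitted a quasi-likelihood model with TMM scaling and filterByExpr to all libraries with 1 mean per genotype (common biological coefficient of variation 0.316), and FDR values were adjusted by Benjamini-Hochberg over 23062 genes. The scripts were tested on simulated data. Alternatives were DESeq2 1.42.0 and its size factors, other filters on low counts, fits to 2 genotypes, a robust fit, limma 3.58.1 voom with quality weights, a block for the replicate number, Ddx3y and marker levels as covariates, near-identical libraries averaged, mitochondrial genes left out, counts divided by 3 and libraries left out. Members and gene lists were chosen with earlier results of these data known. Named genes were all members, genes of the pathway lists with an FDR under 0.05 against hTau (at most 4 per list, by smallest p), the 3 genes with the highest r of log2(CPM + 1) to each called member, and Chga and Prnp. Genes close to Adcy5, the interaction with Ddx3y, the excitatory marker covariate and the fits without 2 libraries were added after the data had been seen. Exon lengths and coordinates were from GENCODE M21, which 52029 of 56953 identifiers matched without version, and promoter sequences from RefSeq (GRCm38.p6). Python 3.11.15, numpy 2.4.6, pandas 2.3.3 and matplotlib 3.10.9 were used for tables and figures.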

Additional observations from a re-analysis of the deposited data

Results flagged for a closer look

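In 4 of 27 groups of libraries (9 genes in 3 genotypes), 1 library lay far from the others by Dixon's test, which flags about 1 in 20 groups by chance. hTau replicate 1 was the lowest of its genotype for Adcy1 (1210 CPM), Adcy2 (179 CPM) and Adcy5 (110 CPM), and WT replicate 4, the shallowest library, was the lowest for Adcy3 (22.1 CPM). The groups share libraries and are not independent. The near-identity of hTau replicates 4 to 6 bears on the flags in hTau.

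Differences between genotypes that themselves differed between libraries above and below 1 CPM of Ddx3y, by the interaction test in edgeR, were those of Adcy5 (2.46 on the log2 scale), Adcy8 (-1.13) and Adcy9 (-1.08) for CgA-KO/hTau against hTau and of Adcy9 (-0.74) for CgA-KO/hTau against WT. The test was chosen after the split of these members had been seen and is no independent evidence of it. The hTau libraries below 1 CPM were the 3 near-identical ones, and the near-identical CgA-KO/hTau replicates 1 and 3 were both above 1 CPM.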

How the results depend on the processing

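Adcy1 was lower in WT than in hTau at an FDR under 0.05 in all 33 alternatives, with log2 fold changes of -1.17 to -0.84. The counts of members called depended more on the settings. Leaving out each library in turn gave 1 to 2 called members for WT against hTau, 0 to 2 for CgA-KO/hTau against hTau and 1 to 2 for CgA-KO/hTau against WT. For CgA-KO/hTau against hTau the count of 2 became 1 with DESeq2's size factors, without a filter on low counts, with at least 10 counts in every library (where Adcy4 was not tested), with only 2 genotypes in the fit, with Ddx3y as a covariate and with striatal markers as a covariate, and 0 with near-identical libraries averaged, with excitatory markers as a covariate and without CgA-KO/hTau replicates 1 and 3. For WT against hTau the count of 2 became 1 with near-identical libraries averaged, with excitatory markers as a covariate and without WT replicates 3 and 5, and 3 with only 2 genotypes in the fit, with limma voom, with striatal markers as a covariate and without CgA-KO/hTau replicates 1 and 3. For CgA-KO/hTau against WT the count of 1 became 0 with only 2 genotypes in the fit and without WT replicates 3 and 5, 2 with limma voom and without CgA-KO/hTau replicates 1 and 3, and 4 with striatal markers as a covariate. That covariate turned Adcy5 to -1.09, -0.47 and 0.62 in the 3 comparisons and Adcy8 to 0.73 for WT against hTau, all with an FDR under 0.05, and the cause was not tested. With it the members called were Adcy1, Adcy5 and Adcy8 for WT against hTau and Adcy5 alone for CgA-KO/hTau against hTau. Adcy2 was thus lost in both comparisons, and Adcy9 was lost for CgA-KO/hTau against hTau. With the replicate number as a block, 1 member was called for WT against hTau and 0 for CgA-KO/hTau against hTau, and 1 for CgA-KO/hTau against WT. Same-numbered libraries had r of their deviations of -0.23 to 0.12, apart from replicate 3 of CgA-KO/hTau and WT at 0.44. The numbers were not taken as pairs. Over all genes, 1361 were called for WT against hTau (430 with near-identical libraries averaged to 4048 with striatal markers), 2242 for CgA-KO/hTau against hTau (156 with near-identical libraries averaged to 5229 with limma voom) and 1489 for CgA-KO/hTau against WT (266 with only 2 genotypes to 5029 with striatal markers).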
